A study of Mus musculus with 28 samples.

Results

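Iron handling and the hepcidin pathway were followed through 10 genes in the livers of WT and SIRT6-tg mice: *Hamp*, *Hamp2*, *Tfrc*, *Tfr2*, *Trf*, *Slc40a1*, *Fth1*, *Ftl1*, *Bmp6* and *Id1*. They were taken by gene symbol, and all 10 had a row among the 49585 features of the count table and passed the filter on low counts, which left 21583 genes to test. The 28 libraries came from 28 mice of the strain C57BL/6JOlaHsd, aged 5 to 7 months, in 4 groups of 7, WT and SIRT6-tg of either sex. The SIRT6-tg mice overexpress *Sirt6*, a NAD+-dependent deacylase of the sirtuin family, from 1 whole-body transgenic line, so that an effect of where the transgene sits cannot be told apart from that of *Sirt6*, and WT littermates served as controls. The promoter of the transgene was not given in the sources used here. All mice were fed standard chow and fasted for 4 h before tissue was taken. The total of the counts per library lay between 18758863 and 35393069, with group medians from 25589009 to 26954659.

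Hepcidin, the peptide made from *Hamp*, is secreted by hepatocytes and controls how much iron enters the blood. It binds the iron exporter ferroportin (*Slc40a1*) and has it broken down, so that iron stays in enterocytes, macrophages and hepatocytes. Transcription of *Hamp* is driven by bone morphogenetic proteins, mainly BMP6 from liver sinusoidal endothelium, through SMAD factors, and by inflammatory cytokines through STAT3. Iron also acts after transcription, where iron regulatory proteins bind hairpins in the untranslated ends of mRNAs.

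Mice carry 2 hepcidin genes side by side on chromosome 7, both on the minus strand: *Hamp* at chr7:30942368-30944032 and *Hamp2* at chr7:30922372-30924681 (GRCm38). The bases upstream of their RefSeq starts are shown because these closely related windows belong to genes whose levels differed in other ways between the groups. The *Hamp2* window lies within the span given above, since the Gencode start of *Hamp2* is farther upstream than its RefSeq start. The build of the windows is GRCm38.p6, and both are written 5′ to 3′ on the minus strand. Capitals mark the core of the BMP-responsive element, or the aligned bases in *Hamp2*, and then the STAT3 site.
Hamp, chr7:30944033-30944279: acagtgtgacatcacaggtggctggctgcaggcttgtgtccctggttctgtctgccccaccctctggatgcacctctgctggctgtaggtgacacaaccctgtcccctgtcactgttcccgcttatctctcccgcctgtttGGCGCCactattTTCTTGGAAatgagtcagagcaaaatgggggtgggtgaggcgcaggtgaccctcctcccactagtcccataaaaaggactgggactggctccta
Hamp2, chr7:30924182-30924431: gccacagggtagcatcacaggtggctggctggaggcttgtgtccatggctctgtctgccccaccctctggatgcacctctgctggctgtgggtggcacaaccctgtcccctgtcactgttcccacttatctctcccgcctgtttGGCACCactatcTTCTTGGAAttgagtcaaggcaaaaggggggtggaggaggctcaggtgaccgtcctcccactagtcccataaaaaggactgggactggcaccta

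Of 247 aligned bases, 227 were identical (91.9%), with 20 substitutions and 3 unpaired bases. The substitution G145A fell within the BMP core, counted from 1 at the 5′ end of the printed *Hamp* window, so that GGCGCC in *Hamp* is GGCACC in *Hamp2*. The STAT3 site TTCTTGGAA had 0 substitutions. On either strand, GGCGCC occurred in 11.9% of 32851 RefSeq promoter windows of 300 bases and TTCTTGGAA in 0.417%. Promoter windows matched 7 of the 10 genes (11 windows), of which GGCGCC was in *Hamp* and *Tfrc* and TTCTTGGAA in *Hamp* and *Hamp2*. These matches describe letters only, since binding of a factor was not measured.

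Iron-responsive elements were found in the transcripts of 4 of the 10 genes, and they are shown because they separate the genes whose mRNA is bound at the 5′ end, where translation is blocked, from *Tfrc*, whose mRNA is bound at the 3′ end and is thereby stabilized. Capitals mark the bulged C and the loop CAGTGN, and the 5 bases on each side of the loop pair with each other. Each site has 29 bases and lies in an untranslated region, 5′ in *Fth1*, *Ftl1* and *Slc40a1* and 3′ in *Tfrc*, which holds 4 of the 7 sites. Coordinates are of GRCm38 with the strand in brackets.
Fth1, chr19:9982732-9982760 (+): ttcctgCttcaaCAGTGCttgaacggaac
Ftl1, chr7:45459779-45459807 (-): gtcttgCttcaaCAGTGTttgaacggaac
Slc40a1, chr1:45925465-45925493 (-): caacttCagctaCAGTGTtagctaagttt
Tfrc, chr16:32631219-32631247 (+): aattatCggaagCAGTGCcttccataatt
Tfrc, chr16:32631598-32631626 (+): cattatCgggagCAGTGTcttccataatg
Tfrc, chr16:32631663-32631691 (+): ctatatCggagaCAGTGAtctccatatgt
Tfrc, chr16:32631710-32631738 (+): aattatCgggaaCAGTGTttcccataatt

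*Sirt6* itself was checked first. Its normalized read count (TMM-scaled to a common library size) was 44.8 to 85.9 in male WT mice, with a median of 73.3, and 5263 to 9517 in male SIRT6-tg mice, with a median of 7189. In females it was 47.9 to 165 in WT, with a median of 67.1, and 434 to 1335 in SIRT6-tg, with a median of 785. The groups did not overlap in either sex, and the transgenic females lay below all transgenic males. A difference between the sexes in the response to genotype and the lower transgene level of females therefore cannot be told apart.

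*Hamp* was higher in male SIRT6-tg than in male WT mice. Its normalized read count was 4709 at the lowest, 14979 at the median and 17183 at the highest in male WT (13656 ± 4366, SD, n = 7). In male SIRT6-tg mice it was 18022, 28608 and 46818 (30929 ± 9065, SD, n = 7). Under TMM scaling every transgenic male lay above every WT male, while 1 WT mouse (replicate 2) lay well below the other WT males. By total counts alone the ranges overlapped. Male SIRT6-tg replicate 1 had 16505 of 25321822 reads and male WT replicate 3 had 21568 of 29092540. The fold change was 2.26, or a log2 fold change of 1.18 with SE 0.22 and a 95% interval of 0.75 to 1.61 (edgeR quasi-likelihood test, adjusted p = 0.000196). Under the same TMM scaling, the ranges of 2.60% of all genes lay apart in this direction. With each library left out in turn, the log2 fold change stayed between 1.01 and 1.26. Over the other settings of scaling, filter and fit it fell to 0.87 at the lowest, with an adjusted p (edgeR or DESeq2) of at most 0.00353.

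In females *Hamp* did not differ detectably between genotypes. The normalized read count was 19532, 24467 and 40838 (lowest, median, highest) in female WT and 19603, 28712 and 36968 in female SIRT6-tg mice. These ranges overlapped almost fully. The log2 fold change was 0.08, with a 95% interval of -0.34 to 0.50 and an adjusted p of 1.00 by edgeR.

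The genotype effect on *Hamp* in males exceeded that in females by 1.10 on the log2 scale (SE 0.31, edgeR adjusted p = 0.0307). This call was lost when counts were scaled by library size alone (0.78, adjusted p = 0.109) and without the filter on low counts (1.10, adjusted p = 0.0580). It was also lost without male SIRT6-tg replicate 4 (adjusted p = 0.0549) or 7 (adjusted p = 0.0590), without female WT replicate 4 (adjusted p = 0.0615), or without female SIRT6-tg replicate 7 (adjusted p = 0.0586). *Hamp* was the only one of the 10 genes called here, where 1.20% of all genes were called higher.

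Among WT mice, males had less *Hamp* than females. Under TMM scaling the ranges given above did not overlap, which held in this direction for 1.64% of all genes. By total counts alone they overlapped, with 21568 of 29092540 reads in male WT replicate 3 and 19195 of 26287975 in female WT replicate 5. The log2 fold change of male WT against female WT was -0.92 (SE 0.22, edgeR adjusted p = 0.00453). The range of male SIRT6-tg mice lay across the ranges of both female groups, with a median near theirs.

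Of 7 hepatocyte markers, 3 were called higher in male SIRT6-tg than in male WT mice (*Alb*, *Serpina1a* and *Fgb*), beside 9.68% of all genes. Between male WT and female WT mice 2 were called lower in males (*Alb* and *Fgb*), beside 5.71% of all genes. *Apoa1* stood at 0.20 in this second comparison and was not called. The summed level of the 7 markers, most of it *Alb*, was taken in CPM (counts scaled to library size multiplied by the TMM factor). It was 93754 to 129240 in male WT and 116209 to 162369 in male SIRT6-tg mice. In females it was 145784 to 187317 in WT and 118049 to 179822 in SIRT6-tg mice. The TMM factors were 1.06 to 1.17 in male WT and 0.82 to 0.99 in male SIRT6-tg mice. This scaling widened the gap between the male sums. Sums of the markers under library size alone were not taken. Relative to the mean of these markers, a scale chosen after seeing the data, *Hamp* was still higher in male SIRT6-tg than in male WT mice, by 0.83 on the log2 scale (exact permutation test, two-sided, n = 7 and 7, p = 0.00350). Of the 7 transgenic males, 6 lay above all WT males on this scale. In females the difference on this scale was 0.26 (exact permutation test, p = 0.179). *Hamp* was lower in male WT than in female WT mice, by -0.69 (exact permutation test, p = 0.00991), with 4 of 7 WT males below all WT females. In bulk liver, fewer cells of a type and less RNA per cell cannot be told apart.

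*Hamp2*, whose peptide is not known to take over the iron-regulating role of hepcidin, differed between the sexes but not detectably between genotypes. It had 73.4, 219 and 328 normalized reads (lowest, median, highest) in male WT and 122, 204 and 385 in male SIRT6-tg mice. In females it had 1684, 3876 and 6671 in WT and 1599, 3258 and 9864 in SIRT6-tg mice. All 14 males lay below all 14 females. The log2 fold change of male WT against female WT was -4.35 (SE 0.41, edgeR adjusted p = 1.91e-08), which is a level of 0.0489 times that of female WT mice. Ranges lay apart in this direction for 1.64% of all genes. For genotype the log2 fold changes were 0.37 in males (95% interval -0.36 to 1.10, edgeR adjusted p = 0.543) and 0.13 in females (95% interval -0.56 to 0.82, edgeR adjusted p = 1.00).

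Counted against *Hamp* in the same library, *Hamp2* reads amounted to a median of 1.40% in male WT and 0.732% in male SIRT6-tg mice, against 16.3% in female WT mice. In female SIRT6-tg mice the share lay between 8.17% and 44.1%. The highest male value was 2.28% and the lowest female value 7.64%. Of the 50-base words in *Hamp* transcripts, 16.6% also occur in *Hamp2*, and only uniquely mapped reads had been counted. An antisense gene, *Gm44662*, covers 15.3% of the exon bases of *Hamp2* and had at most 3.84 normalized reads in any library.

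**Figure D1:**
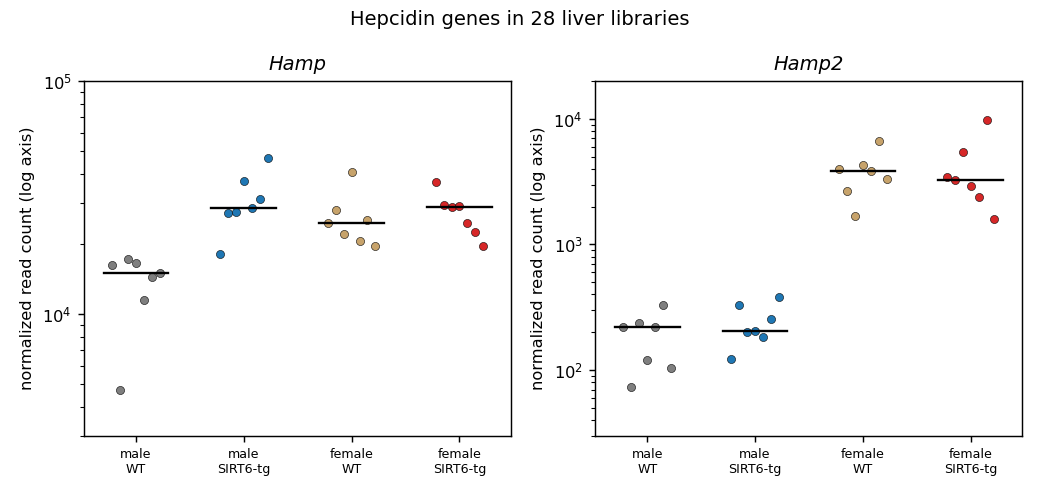
Normalized read counts (log axis) of *Hamp* and *Hamp2* in each library, 7 mice a group, with the group median as a line. Under this TMM scaling all male SIRT6-tg mice lie above all male WT mice for *Hamp*, and all males lie below all females for *Hamp2*.

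The receptors came next. *Tfr2*, which makes a transferrin receptor of hepatocytes that takes part in iron sensing upstream of hepcidin, was higher in male SIRT6-tg mice. Its normalized read count was 6485, 10302 and 12460 (lowest, median, highest) in male WT and 10814, 12799 and 14456 in male SIRT6-tg mice. These ranges overlapped, with 4 of 7 transgenic mice above all WT mice. The log2 fold change was 0.36 (SE 0.11, edgeR adjusted p = 0.0213), and it was no longer called under upper-quartile scaling (0.28, adjusted p = 0.0844), under library size alone (0.09, adjusted p = 0.669), when only male groups were fitted (0.28, adjusted p = 0.137) or without male WT replicate 4 (0.31, adjusted p = 0.0820). Relative to the hepatocyte markers the difference was -0.01 (exact permutation test, p = 0.925). In females *Tfr2* had medians of 10917 in WT and 10744 in SIRT6-tg mice, with a log2 fold change of -0.07 (95% interval -0.29 to 0.15).

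*Tfrc*, the transferrin receptor that most cells use for iron uptake and a transcript that is kept stable when iron is low, was level across the groups. Its median normalized read counts were 398 and 387 in male WT and SIRT6-tg mice, and 362 and 395 in the females. The 7 male WT mice kept within 363 to 447, and the other groups spread from 224 to 657. The log2 fold change between genotypes was 0.03 in males (95% interval -0.34 to 0.40, turned to -0.25 under library size alone) and -0.03 in females (95% interval -0.40 to 0.34).

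*Slc40a1*, the ferroportin gene, also did not differ detectably between genotypes. Its medians were 5772 and 5883 in male WT and SIRT6-tg mice, and 5769 and 6423 in female WT and SIRT6-tg mice. The log2 fold changes were 0.02 (95% interval -0.25 to 0.29, turned to -0.26 under library size alone) and 0.19 (95% interval -0.08 to 0.46). A count of its mRNA gives no measure of the protein, on which hepcidin acts.

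*Trf*, which encodes transferrin, the iron carrier of plasma, and *Fth1*, the heavy chain of ferritin, were among the most abundant of the 10. In males *Trf* had medians of 20972 normalized reads in WT and 22047 in SIRT6-tg mice, and in females of 20656 and 22491. Its libraries spread widely within each group, between 16516 and 45517 in male WT and between 19008 and 50242 in male SIRT6-tg mice. *Fth1* had medians of 45332, 50281, 39686 and 39067 in the same order. Neither gene was called in any comparison, with male log2 fold changes of 0.26 (95% interval -0.27 to 0.79) for *Trf* and 0.26 (95% interval -0.11 to 0.63) for *Fth1*, which turned to -0.063 and -0.048 under library size alone. In the annotation used here, *Gm20425* covers 63.5% of the exon bases of *Trf* on the same strand and had 0 reads in every library, which leaves the count of *Trf* uncertain.

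*Ftl1*, the light chain of ferritin, had only 188 to 557 normalized reads over all libraries. Of its 50-base words, 58.4% also occur in other genes, among them the pseudogene *Ftl1-ps1*, so its level after counting of unique reads is uncertain. In females its medians were 267 in WT and 357 in SIRT6-tg mice, with a log2 fold change of 0.47 (95% interval 0.06 to 0.87) that did not pass adjustment (edgeR adjusted p = 0.799). In males the log2 fold change was -0.04 (95% interval -0.44 to 0.36).

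*Bmp6*, the ligand, was the least abundant of the 10 per length. It had medians of 118 and 139 in male WT and SIRT6-tg mice, and of 73.8 and 124 in the females. The groups overlapped, and the log2 fold changes between genotypes were 0.27 in males (95% interval -0.22 to 0.76) and 0.26 in females (95% interval -0.23 to 0.76). On the opposite strand, *Txndc5* covers 5.74% of the exon bases of *Bmp6* and had 2810 to 5224 normalized reads. The library kit does not mark strand and the strand setting was not given, so the count of *Bmp6* is uncertain. *Id1*, a target of BMP and SMAD signalling, had medians of 285 and 305 in male WT and SIRT6-tg mice, and of 426 and 476 in the females. In males 3 of 7 transgenic mice lay above all WT mice, and the log2 fold change of 0.55 (95% interval 0.03 to 1.07) did not pass adjustment (edgeR adjusted p = 0.147). Summed levels of 7 sinusoidal endothelial markers, the cells that make BMP6, were 267 to 357 CPM in male WT and 257 to 324 in male SIRT6-tg mice.

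**Figure D2:**
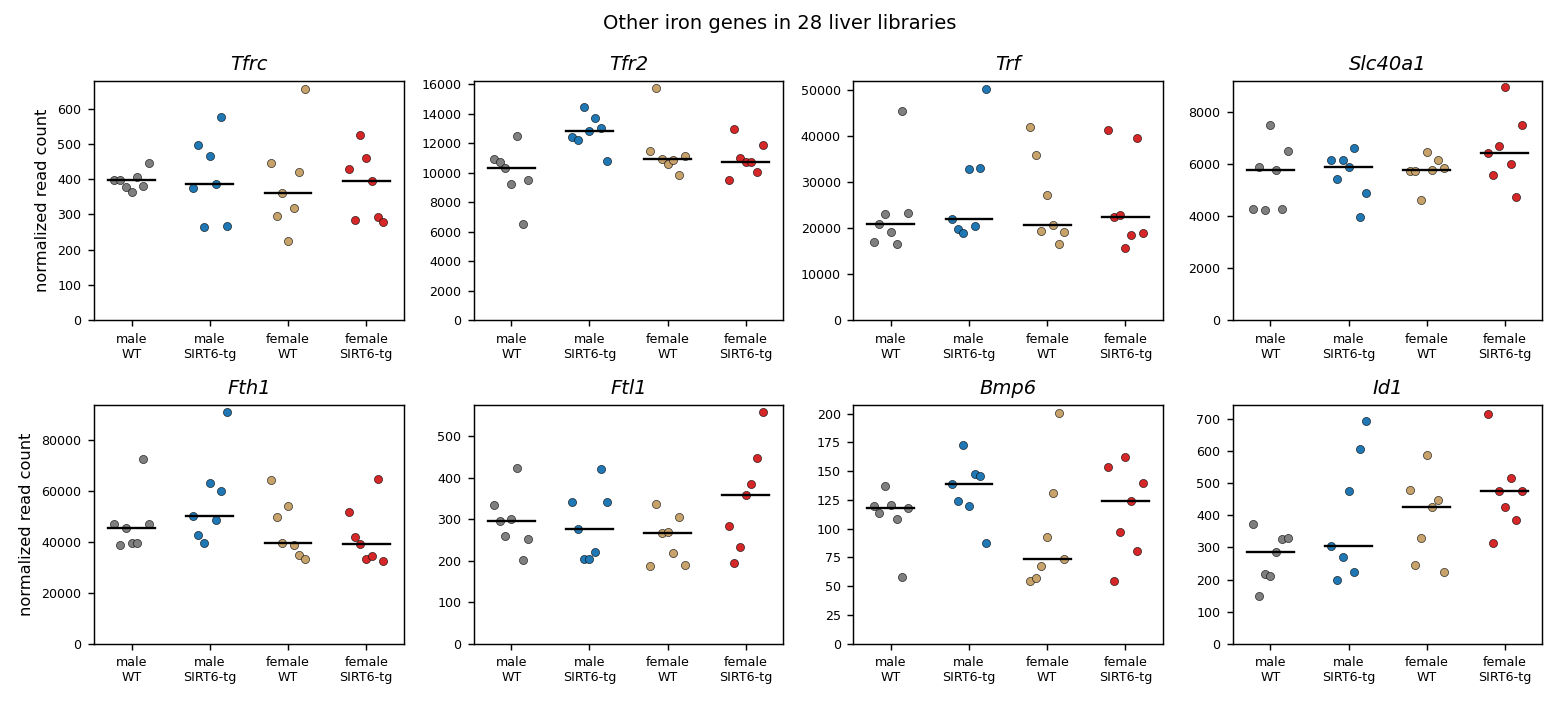
Normalized read counts of the other 8 genes in each library, 7 mice a group, on axes that start at 0, with the group median as a line. *Tfr2* is shifted upwards in male SIRT6-tg mice with an overlap, and single libraries stand far above their groups for *Trf* and *Fth1* in male WT mice.

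Over the 10 genes, 2 were called higher in male SIRT6-tg mice (*Hamp* and *Tfr2*), where 9.68% of all genes tested were called higher. Their median log2 fold change was 0.27, beside 0.06 over all genes. In females 0 of 10 were called by edgeR and 0 by DESeq2, with 1 at an unadjusted p under 0.05 by either tool, and 0.0278% of all genes were called. Between male WT and female WT mice 2 of 10 were called lower in males, beside 5.71% of all genes. Scaling bears on such counts: of the genes called in males, 46.8% were higher in SIRT6-tg mice with TMM scaling and 4.89% with library size alone, which moved the median of all genes from 0.06 to -0.22. For the difference between the sexes in genotype effect the share was 23.9% against 1.40% (median 0.03 against -0.25), and for male WT against female WT it was 53.8% against 86.8% (median -0.0033 against 0.19).

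**Figure D3:**
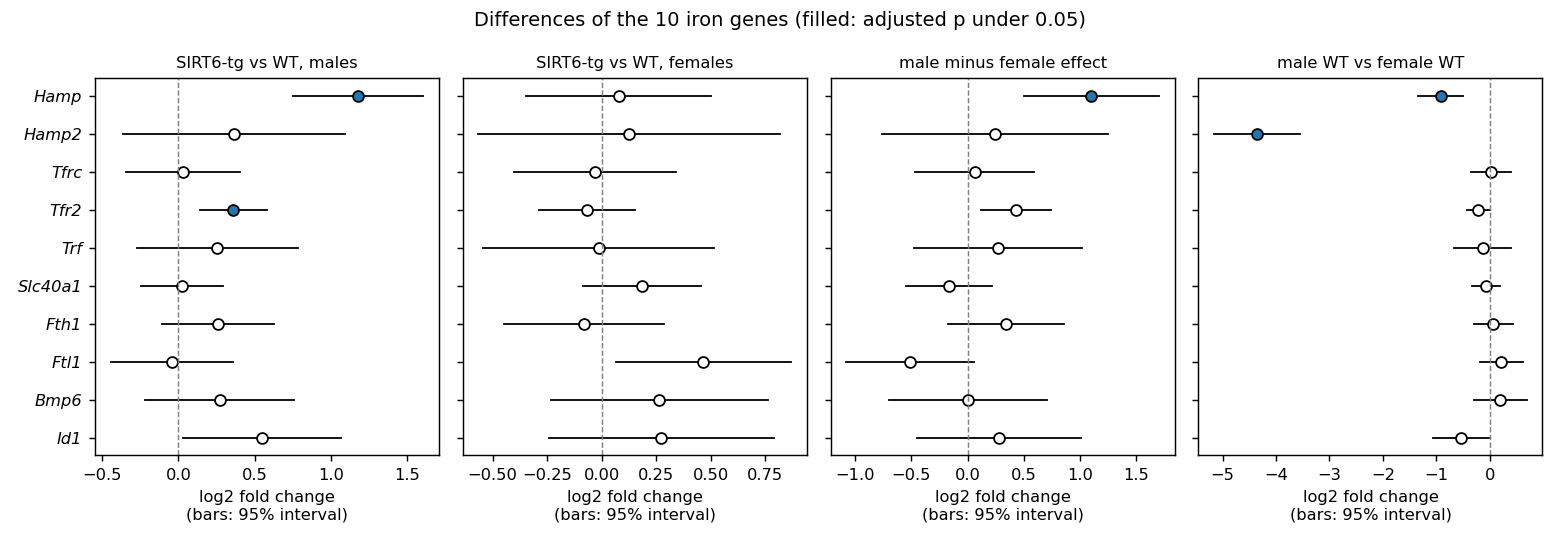
Log2 fold changes of the 10 genes (points) with 95% intervals (bars) in the 4 comparisons, each panel on its own axis, filled where the adjusted p was under 0.05. *Hamp* at 1.18 and *Tfr2* at 0.36 are filled in males, no gene is filled in females, and *Hamp2* at -4.35 is the largest difference between the sexes among these genes.

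Per kilobase of exon, *Hamp* had the highest level, with a mean of 2241 CPM per kb over all libraries. *Fth1* followed at 518, *Trf* at 293, *Hamp2* at 135, *Tfr2* at 98.1, *Slc40a1* at 24.5, *Id1* at 12.4, *Ftl1* at 8.33, *Tfrc* at 2.39 and *Bmp6* at 1.10. *Hamp* was above *Fth1*, *Tfr2* above *Slc40a1* and *Ftl1* above *Tfrc* in all 28 libraries. The place of *Hamp2* depended on sex, with a mean of 15.5 CPM per kb in male SIRT6-tg mice and less in male WT mice, below *Slc40a1* in both (23.4 in SIRT6-tg mice), and means of 245 and 267 in the females, above *Tfr2* (99.8 and 95.3). *Trf* was above *Hamp2* in 23 libraries and *Id1* above *Ftl1* in 20.

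Within groups, *Hamp* was compared across the 7 mice with *Id1*, *Hamp2* and *Bmp6*, 12 correlations of log2 CPM in all. None passed adjustment over the 12. The lowest adjusted p was 0.344 for Pearson's r and 0.286 for Spearman's rho (exact permutation tests, two-sided). The latter was *Hamp* and *Bmp6* in male WT mice (rho 0.86, exact p = 0.0238), where r was 0.02. For this pair r was -0.65 in male SIRT6-tg (exact p = 0.115), -0.006 in female WT and 0.08 in female SIRT6-tg mice. For *Hamp* and *Hamp2* r was 0.59 and 0.75 in male WT and SIRT6-tg mice (exact p = 0.145 and 0.0502), and 0.25 and 0.13 in the females. For *Hamp* and *Id1*, r was 0.67 in male WT mice (exact p = 0.0952, Spearman's rho 0.14, exact p = 0.783), and it turned to -0.65 without the 2 mice farthest from the *Hamp* median. In male SIRT6-tg mice r was 0.64 (exact p = 0.114, rho 0.71, exact p = 0.0881) and 0.74 without those 2. In female WT mice r was 0.54 (exact p = 0.207, rho 0.57, exact p = 0.200) and -0.46 without them, and in female SIRT6-tg mice it was 0.36 (exact p = 0.427, rho 0.04, exact p = 0.963) and -0.20 without them. In male WT mice the relation therefore rested on those mice under this scaling and under library size alone (0.69 with all mice, -0.93 without 2). In the female groups it depended on the scaling, since under library size alone r without 2 mice was 0.56 in WT and 0.35 in SIRT6-tg mice.

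Over all 28 libraries, with each group centred on its own mean, *Ears2* (r = 0.72), *Nubp1* (0.69), *Ppa1* (0.66), *Cdkn2c* (0.65) and *Hdac1* (0.64) had the patterns most like *Hamp* among 11123 genes. *Nubp1* takes part in the assembly of cytosolic iron-sulfur proteins. Most like *Hamp2* were *Cdkn1c* (0.74), *Cyp17a1* (0.70), *Gstt3* (0.69), *Otc* (0.69) and *Gstm7* (0.69). These r values describe 28 libraries that share preparation but not depth, and they were picked as the highest of many.

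**Figure D4:**
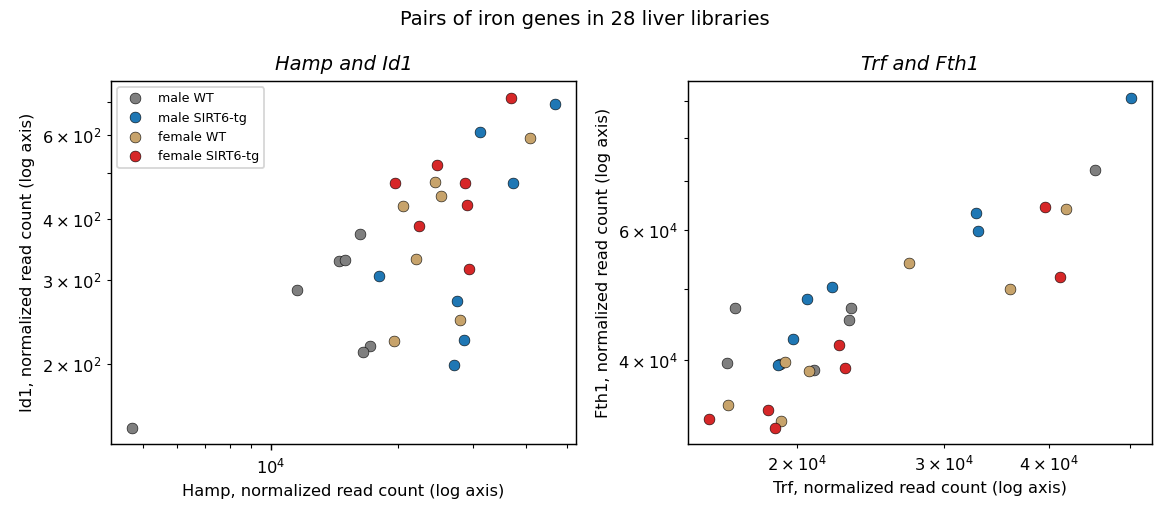
Normalized read counts of *Id1* against *Hamp* and of *Fth1* against *Trf* (log axes), 1 point a library, coloured by group. *Hamp* and *Id1* scatter widely within groups, while *Trf* and *Fth1* lie close to a line in 3 groups and in male WT mice are set apart by 1 library.

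The wider pathway was followed with 84 further genes in 8 lists, of which 81 were tested. In male SIRT6-tg mice 16 of them were higher and 6 lower than in WT, beside 9.68% of all genes called higher and 11.0% lower. Scaled by library size alone, 0 of the 16 higher calls and all 6 lower calls stayed (*Hmox1*, *Il1b*, *Lcn2*, *Saa1*, *Saa2* and *Steap4*). Of 8 alternative settings (library size alone and other scalings, filters, DESeq2, the replicate block and males only), *Smad9* kept its higher call in 7, *Fech*, *Id2*, *Isca2* and *Pcbp1* in 6, *Isca1*, *Tmprss6* and *Urod* in 5, *Uros* in 4, *Mcoln1* and *Nfs1* in 3, *Atoh8*, *Hfe* and *Lyrm4* in 2, and *Iscu* and *Ppox* in 1. In females 0 of 81 were called by edgeR and 0 by DESeq2, with 9 and 10 at an unadjusted p under 0.05.

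Among the upstream regulators of hepcidin, 3 of 16 were higher in male SIRT6-tg mice, and the list's median log2 fold change was 0.10. *Tmprss6*, the protease that cleaves hemojuvelin and so dampens hepcidin, was higher by 0.30 on the log2 scale (SE 0.08, edgeR adjusted p = 0.0112), and was not called without male WT replicate 4 (0.25, adjusted p = 0.0538). *Smad9*, a receptor-activated SMAD, was higher by 0.83 (SE 0.26, edgeR adjusted p = 0.0220). It had 155 to 304 normalized reads in male WT and 315 to 698 in male SIRT6-tg mice. These ranges lay apart under TMM scaling, as held in this direction for 2.60% of all genes, but overlapped by total counts alone. *Smad9* was not called under library size alone (0.56, adjusted p = 0.152), without male WT replicate 3 (adjusted p = 0.0593) or without male SIRT6-tg replicate 5 (adjusted p = 0.0665). *Hfe*, the hemochromatosis gene, was higher by 0.22 (SE 0.08, adjusted p = 0.0394), with the sign turned to -0.06 under library size alone and the call lost in 19 of 28 fits that left out 1 library. *Bmp2*, the other endothelial ligand, had male medians of 603 in WT and 653 in SIRT6-tg mice and was not called.

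Of 8 BMP and SMAD targets, 2 were higher in male SIRT6-tg mice, with a median of 0.32 over the list. *Id2* was higher by 0.61 (SE 0.18, adjusted p = 0.0157) and *Atoh8*, a transcription factor linked to hepcidin, by 0.62 (SE 0.22, adjusted p = 0.0390). Leaving out 1 library ended the call of *Id2* in 3 of 28 fits and that of *Atoh8* in 13, with an adjusted p of up to 0.160 for *Atoh8*. *Smad7*, an inhibitor in the same pathway, stood at 0.32 (adjusted p = 0.181) and *Smad6*, another, at 0.12 (adjusted p = 0.582).

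Of 12 genes of the inflammatory arm, 4 were lower in male SIRT6-tg mice and 8 were not called, with a median of -0.23 over the list. *Lcn2*, a siderophore-binding acute phase protein, had 598 to 3071 normalized reads in male WT and 78.6 to 218 in male SIRT6-tg mice, with a log2 fold change of -3.75 (SE 0.61, adjusted p = 5.83e-05). *Saa2* was at -2.77 (adjusted p = 8.96e-05) and *Saa1* at -1.90 (adjusted p = 0.00358), both acute phase proteins of hepatocytes. The cytokine gene *Il1b* was at -1.53 (adjusted p = 3.83e-05). *Il6*, the cytokine best known to raise hepcidin, had at most 4.60 normalized reads in any library, and *Stat3* stood at -0.07 (adjusted p = 0.821). *Hamp* and these 4 genes thus differed in opposite directions between male WT and SIRT6-tg mice.

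Markers of immune cells moved with this group. Of 7 Kupffer cell markers 6 were lower in male SIRT6-tg mice, and their summed level was 314 to 1031 CPM in male WT and 272 to 464 in male SIRT6-tg mice. All 6 T cell markers were lower, from 11.9 to 34.9 CPM in sum down to 4.19 to 6.11. Of 4 B cell markers 3 were lower, and of 5 stellate cell markers 4. Over all genes tested, 11.0% were called lower and 9.68% higher in this comparison. Blood and erythroid, cholangiocyte and pancreas lists had 1 of 7, 0 of 5 and 1 of 4 markers higher and none lower by edgeR, with 1, 1 and 3 at an unadjusted p under 0.05. In the pancreas list *Cela1* was higher by 0.75, and the other 3 markers (*Cpa1*, *Pnlip* and *Prss2*), not called, stood at -2.34, -2.56 and -2.48. In female WT mice the summed T cell markers were at 4.68 to 13.5 CPM. No marker of these lists was at 0 in every library, and in females none was called. Their part in the differences of *Hamp* or of the inflammatory genes was not tested.

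Among genes of iron and heme transport, *Mcoln1*, an iron-permeable channel of lysosomes, was higher in male SIRT6-tg mice by 0.26 (SE 0.08, adjusted p = 0.0238), with the sign turned to -0.01 under library size alone and the call lost in 6 of 28 fits that left out 1 library. *Steap4*, a metalloreductase, was lower, at -0.58 (SE 0.20, adjusted p = 0.0368), a call lost in 7 of those 28 fits. The other 14 of 16 were not called. *Hp* and *Hpx*, the plasma carriers of haemoglobin and heme, stood at -0.40 (adjusted p = 0.299) and -0.46 (adjusted p = 0.149).

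In heme synthesis and breakdown 4 of 12 genes were higher in male SIRT6-tg mice and 1 lower, with a median of 0.29. *Fech*, which inserts iron into heme, was higher by 0.30 (adjusted p = 0.00522), *Urod* by 0.47 (adjusted p = 0.0265) and *Uros* by 0.37 (adjusted p = 0.0290). *Hmox1*, which breaks heme down and releases its iron, was lower at -0.84 (SE 0.21, adjusted p = 0.00425). Of 10 genes of iron-sulfur cluster assembly 5 were higher, with a median of 0.24, among them *Isca2* (0.41, adjusted p = 0.0173), *Isca1* (0.40, adjusted p = 0.0236), *Nfs1* (0.25, adjusted p = 0.0256) and *Lyrm4* (0.39, adjusted p = 0.0446). *Pcbp1*, a chaperone that delivers iron to ferritin, was higher by 0.31 (adjusted p = 0.00295) and was the only gene called of 6 for storage and mitochondrial iron. Under library size alone *Hmox1* stayed called, and the genes called higher were not, with *Nfs1* turned to -0.04. With 1 library left out, the calls of *Fech*, *Hmox1* and *Pcbp1* were kept in all 28 fits, while those of *Isca2*, *Isca1*, *Urod*, *Nfs1*, *Uros* and *Lyrm4* were lost in 3, 5, 6, 6, 7 and 17. Of the 3 genes of the iron regulatory protein system none was called by edgeR in either sex. *Aco1*, the iron regulatory protein that doubles as aconitase, stood at 0.31 in males (adjusted p = 0.0756).

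**Figure D5:**
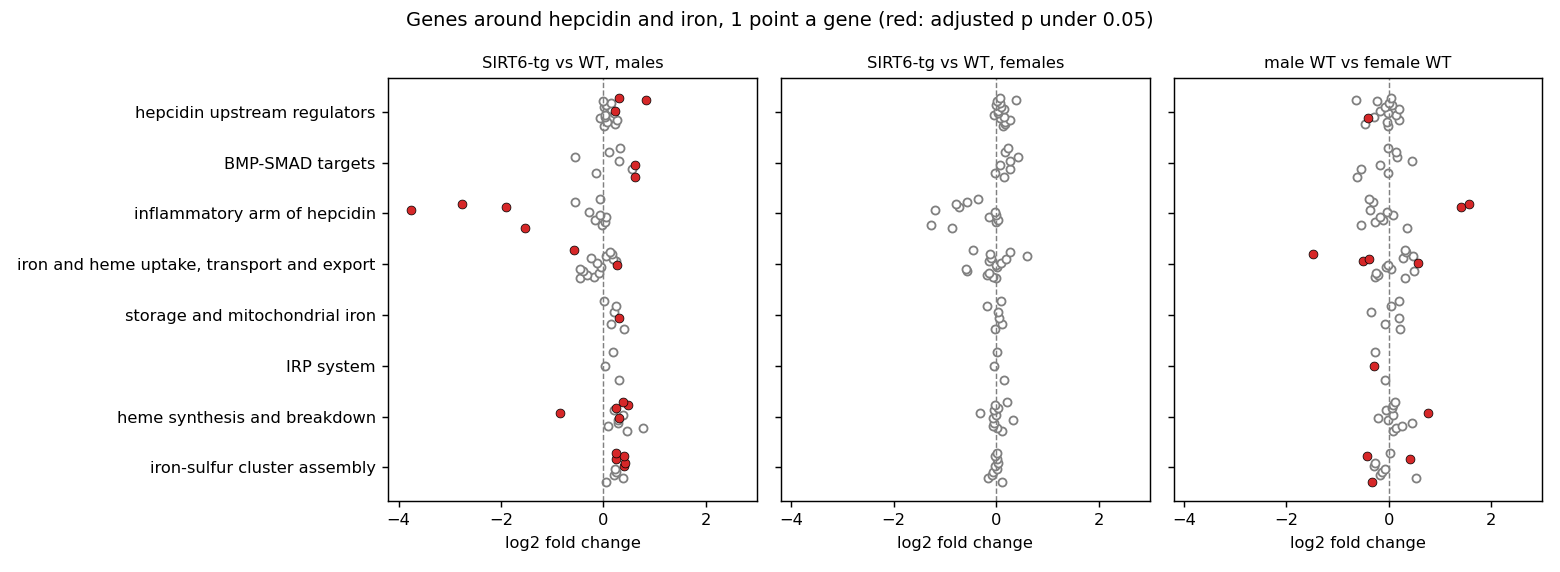
Log2 fold changes of single genes in 8 lists around hepcidin and iron, SIRT6-tg against WT in males and females and male WT against female WT, red where the adjusted p was under 0.05. In males the inflammatory genes reach -3.75 and most other called genes lie between 0.22 and 0.83, and no gene is red in females.

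Between male WT and female WT mice, 5 of the 81 list genes were higher in males and 7 lower, where 6.65% of all genes were called higher and 5.71% lower. Under library size alone the 5 higher calls and 1 of the 7 lower calls (*Steap2*) stayed. *Steap2*, a metalloreductase, was lower in males at -1.47 (SE 0.23, adjusted p = 4.23e-05), and the zinc and iron importers *Slc39a14* (-0.50, adjusted p = 0.0106) and *Slc39a8* (-0.38, adjusted p = 0.00232) were lower as well, though at -0.32 and -0.20 and not called under library size alone. *Slc11a2*, an iron importer, was higher in males at 0.57 (adjusted p = 0.000868). Among upstream regulators *Bmpr1a*, a BMP receptor, was the only gene called, lower in males at -0.41 (adjusted p = 0.0170), and at -0.23 and not called under library size alone. *Fbxl5*, which targets an iron regulatory protein for degradation, was lower at -0.29 (adjusted p = 0.00386), and at -0.098 and not called under library size alone. *Hmox1* (0.77, adjusted p = 0.0143), *Saa1* (1.41, adjusted p = 0.0390) and *Saa2* (1.57, adjusted p = 0.0198) were higher in males, with *Saa1* not called in 9 of 28 fits that left out 1 library. For *Hmox1*, *Saa1* and *Saa2* the direction in male SIRT6-tg against male WT mice was the opposite, as it was for *Hamp*, and both comparisons share the male WT mice.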

How the data were processed

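Single-end reads of liver RNA (NEBNext Ultra, a kit that does not mark strand) had been aligned by the authors to mm10 with STAR 2.5.0a and uniquely mapped reads counted per Gencode gene with HTSeq. The authors deposited raw counts per gene, which were used unchanged. The strand setting is not given in the sources used here. Libraries were grouped by sex and genotype from their labels, and each was taken as 1 mouse. The 21583 genes whose normalized counts averaged 0.5 or more were tested with the quasi-likelihood test of edgeR 4.0.16 in R 4.3.3, TMM scaling, all 4 groups in 1 fit and Benjamini-Hochberg adjustment, after the scripts had been tested on simulated counts. A gene was called at an adjusted p under 0.05. DESeq2 1.42.0 was an alternative. The 28 columns were all mapped to samples. Symbols, exon lengths and transcripts came from Gencode vM21 and promoter windows from RefSeq (GRCm38.p6). A log2 CPM used a prior count of 2. Replicate numbers did not mark shared mice, and correlations of same-numbered libraries lay between -0.28 and 0.27, so no block was used.

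Members and gene lists were chosen with earlier results of these data known. Beside the members, the text named up to 4 list genes with the lowest adjusted p per list and comparison, and the 5 genes most like *Hamp* and *Hamp2*. Other genes were named after their values were seen.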

Additional observations from a re-analysis of the deposited data

Results flagged for a closer look

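*Hamp* was listed because the genotype effect differed between males and females by 1.10 on the log2 scale (edgeR adjusted p = 0.0307).

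Of 40 combinations of a gene and a group, 6 had 1 library that stood apart by Dixon's criterion at the 95% level, which chance gives in about 1 in 20. *Hamp* in female WT replicate 4 had 40838 normalized reads, with the next mouse at 27998. *Tfr2* in female WT replicate 2 had 15751, with the next at 11478. *Trf* in male WT replicate 6 had 45517, with the next at 23193, and *Fth1* in the same library had 72528, with the next at 47071. *Bmp6* was lowest in that library too, at 58.2, with the next at 108. *Slc40a1* in female WT replicate 3 had 4626, with the next at 5726.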

How the results depend on the processing

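Alternatives were another scaling (RLE, upper-quartile or library size alone), another filter, DESeq2, fits of the compared groups only, the replicate block and leaving out each library. A scale relative to hepatocyte markers was added after seeing the data. The higher *Hamp* in male SIRT6-tg mice and the lower *Hamp* and *Hamp2* in male WT than in female WT mice stayed called in all of these that gave a test.

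The number of the 10 genes called in males fell from 2 to 1 under upper-quartile scaling, library size alone and a fit of males only, and was 1 to 2 with single libraries left out (1 without male WT replicate 4). For the sex difference in genotype effect it fell from 1 to 0 under library size alone and without the filter, and was 0 to 1 with single libraries left out. Over all genes, calls in females numbered 6, 44 by DESeq2, 2 in a fit of females only, and 3 to 16 with single libraries left out. Library size alone gave 1863 calls in place of 1089 for the sex difference in genotype effect and 4212 in place of 2669 between WT males and females. It also turned *Hfe* (-0.057), *Iscu* (-0.051), *Mcoln1* (-0.015), *Nfs1* (-0.039) and *Ppox* (-0.030) in males, as well as *Trf* (-0.063), *Fth1* (-0.048), *Slc40a1* (-0.26) and *Tfrc* (-0.25), which were not called in either scaling, and *Tfr2* turned to -0.013 relative to hepatocyte markers. The cause was not tested.

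Same-numbered libraries share only a number (0 of 7 male WT libraries and 1 of 7 female WT libraries correlated best with their own number in the other genotype). With the replicate block *Hamp* in males was at 1.20, calls over all genes numbered 4209 in males and 6 in females, and no call among the 10 genes changed. At this depth *Bmp6* had 54.2 to 200.4 normalized reads a library, the lowest mean level of the 10.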

Other observations

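*Trf* and *Fth1* varied together between mice of the same group, a pair chosen after seeing the data. Pearson's r of log2 CPM was 0.98 in male SIRT6-tg mice (exact permutation p = 0.000397, adjusted over 4 groups 0.00159; rho 0.96, exact p = 0.00278) and 0.94 without the 2 mice farthest from the *Trf* median. It was 0.92 in female WT (exact p = 0.00516, adjusted 0.00688; rho 0.89, exact p = 0.0123) and 0.92 without 2 mice, and 0.94 in female SIRT6-tg mice (exact p = 0.00397, adjusted 0.00688; rho 0.82, exact p = 0.0341) and 0.83 without 2 mice. In male WT mice r was 0.89 (exact p = 0.0403, adjusted 0.0403; rho 0.57, exact p = 0.200) and 0.06 without 2 mice, so that it rested on those mice. Over 28 libraries centred by group, the genes most like *Trf* were *Rpl36al*, *Ndufa3* and *Rps15a* (r = 0.98, 0.97 and 0.97), and those most like *Fth1* were *Cox4i1* and *Prdx2* (both 0.98). *Rpl36al* and *Rps15a* encode ribosomal proteins, and *Ndufa3* and *Cox4i1* encode subunits of the respiratory chain. The cause of this shared spread was not tested.

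The patterns most like *Bmp6* over the 28 libraries were *Flt4* (r = 0.84), *Arhgef10* (0.80), *Cnr2* (0.78), *Kdr* (0.77) and *Dnase1l3* (0.77). *Flt4* and *Kdr* encode receptors of endothelial cells. *Alas2*, the erythroid form of the first enzyme of heme synthesis, differed between the sexes, with 1406 to 2281 normalized reads in male WT and 314 to 578 in female WT mice (log2 fold change 2.18, edgeR adjusted p = 9.69e-14), and was higher in male SIRT6-tg than in male WT mice by 0.42 (adjusted p = 0.0127). It was the only 1 of 7 blood and erythroid markers called in these comparisons, where the medians of the list were 0.11 and 0.25.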
